A study of Mus musculus with 55 samples.

Results

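The core interferon genes described here were Isg15, Usp18, Rsad2, Mx1, Mx2, Bst2, Ifit1, Ifit2, Ifit3 and Ifit3b, the 10 genes with these symbols among the 55421 genes of the first count table. Bulk RNA-seq of mouse bone marrow HSPCs, libraries of 200 sorted cells each, covered 6 populations: long-term and short-term hematopoietic stem cells (LT-HSC and ST-HSC), common myeloid progenitors (CMP), granulocyte-macrophage progenitors (GMP), megakaryocyte-erythroid progenitors (MEP) and common lymphoid progenitors (CLP). The first set held 46 libraries, from WT mice (n = 4, but n = 3 for LT-HSC and ST-HSC) and from Tet2-/- mice (n = 4 for each population). A second set held 9 LT-HSC libraries, 3 each from WT, Sting-/- and Tet2;Sting double knockout (DKO) mice, in a table of 35976 genes. Per the study, all mice were on a C57BL/6 background. Tet2 was deleted by Cre under the interferon-inducible Mx1 promoter after poly(I:C), itself an inducer of interferon, and the animals were kept for months before analysis. The study's methods do not state whether WT and Sting-/- mice received poly(I:C). The study describes its LT-HSC libraries as individual mice, while the labels do not say whether populations with the same number came from the same animal, and p-values measure the spread between libraries.

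Type I interferons bind the receptor chains IFNAR1 and IFNAR2, and the signal through JAK kinases ends at interferon-stimulated response elements in promoters. STING is a sensor protein upstream of interferon production. Isg15 encodes a ubiquitin-like protein and Usp18 the protease that removes it from its targets and also dampens the receptor. Rsad2 encodes viperin, Mx1 and Mx2 dynamin-like GTPases, Bst2 tetherin, a membrane protein that holds virions at the cell surface, and the Ifit genes RNA-binding proteins. In many laboratory strains, C57BL/6 included, Mx1 and Mx2 carry inactivating mutations, and a transcript from them is not a working protein.

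The promoters are shown first because the pathway ends at a short promoter element. RefSeq windows (GRCm38.p6) were at hand for 7 members, and the core of the response element was searched as GAAANNGAAA on both strands of the 250 bases before each start. Of the 7 members, 6 held a match, against 3.46% of the 27025 genes with a window, and 7 of 27 other interferon-stimulated genes held one. The 2 Ifit2 windows held none. Capitals mark the matches, which overlap in Isg15 and Bst2, and the sequences run 5′ to 3′ along the gene. The windows lie at chr4:156200860-156200911 for Isg15 (minus strand), chr8:71537572-71537617 for Bst2 (minus strand), chr12:26456548-26456587 for Rsad2 (minus strand), chr19:34640770-34640828 for Ifit1 and chr19:34583358-34583431 for Ifit3 (both plus strand).
Isg15: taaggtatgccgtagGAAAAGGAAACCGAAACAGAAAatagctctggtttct
Bst2: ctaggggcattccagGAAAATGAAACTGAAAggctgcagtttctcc
Rsad2: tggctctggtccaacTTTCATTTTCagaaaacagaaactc
Ifit1: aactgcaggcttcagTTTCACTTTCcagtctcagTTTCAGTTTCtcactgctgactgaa
Ifit3: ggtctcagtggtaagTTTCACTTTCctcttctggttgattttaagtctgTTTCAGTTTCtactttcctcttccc
The Ifit3b window is identical to that of Ifit3 in all 74 bases, with its first match 188 rather than 156 bases before the start. A match is a description of the letters and not a measured binding site.

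The likeness of the pair extends to their transcripts. Of the 50-base words of Ifit3 transcripts in GENCODE M21, 51.2% also occurred in Ifit3b, and 45% of those of Ifit3b in Ifit3, E2f1 or Lrp8, so counts of the 2 genes are uncertain between them. The share was 3.91% for Mx1 and 4.38% for Mx2, with each other or, for Mx1, Gm43684, 7.13% for Ifit1, with Ifit1bl1 and Ifit1bl2, and 3.96% for Isg15, with AC151275.1. It was 0% for Usp18, Rsad2, Bst2 and Ifit2. Usp18 shares 124 exonic bases with Gm44148, a long non-coding RNA gene on the opposite strand, and the counts of the 2 cannot be told apart if strand was not used. The 4 Ifit genes lie together on chromosome 19, from Ifit2 at 34550694 to the end of Ifit1 at 34650009 (GRCm38), and Mx1 and Mx2 lie near each other on chromosome 16.

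Libraries of the first set held 50458473 to 102148079 counts and 13754 to 20964 genes with a count, with the fewest genes in CLP. Those of the second set held 26776517 to 78682096 counts and only 9382 to 11528 genes. Mean Tet2 levels were lower in Tet2-/- than in WT libraries of ST-HSC, CMP and MEP, and higher in those of LT-HSC, GMP and CLP. In LT-HSC the Tet2 level was 23.9 ± 12.7 CPM (SD, n = 4) in libraries labelled Tet2-/- and 13.2 ± 1.77 CPM (SD, n = 3) in WT. A gene-level count can include reads from the exons left after deletion. In the second set Tmem173, the gene of STING, counted 6333 and 3835 reads in 2 of 3 libraries labelled Sting-/-, 14 and 1128 in 2 of 3 labelled DKO, and 0 in 1 of 3 WT libraries. These libraries are called below by their labels. All 8 HSC markers were above 3 counts in both genotypes of the first LT-HSC set, and their summed level ran from 483 to 845 CPM. The summed level of 5 erythroid progenitor markers reached 343 CPM in 1 Tet2-/- LT-HSC library, against at most 45.0 CPM in WT. That of 5 GMP and myeloid progenitor markers reached 148 CPM in Tet2-/- and at most 31.7 CPM in WT LT-HSC, and the part of either in the LT-HSC results was not tested.

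Levels below are CPM, counts scaled to the library total, with TMM scaling, and a library is said to hold a gene when it has more than 3 counts. Detection differed widely between members. Bst2 was held by 46 of 46 libraries of the first set, Ifit2 by 45, Usp18 by 43, Rsad2 by 39, Mx2 by 38, Ifit1 by 36, Isg15 and Mx1 by 28, Ifit3 by 15 and Ifit3b by 5. Per kilobase of exon, WT LT-HSC held Bst2 at 45.0 ± 10.1, Ifit2 at 5.22 ± 2.46, Ifit1 at 4.31 ± 1.33, Usp18 at 3.62 ± 2.33 and Rsad2 at 2.05 ± 1.76 CPM per kb (SD, n = 3). Mx1, Mx2 and Isg15 lay at or below 0.300 CPM per kb there, and Ifit3 and Ifit3b had no count in any of the 3 libraries. A count of 0 allows up to 3 counts by counting error alone. Replicates of a group could differ by far more, as for Ifit3b with 0, 218, 143 and 0 counts in Tet2-/- LT-HSC.

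**Figure D1:**
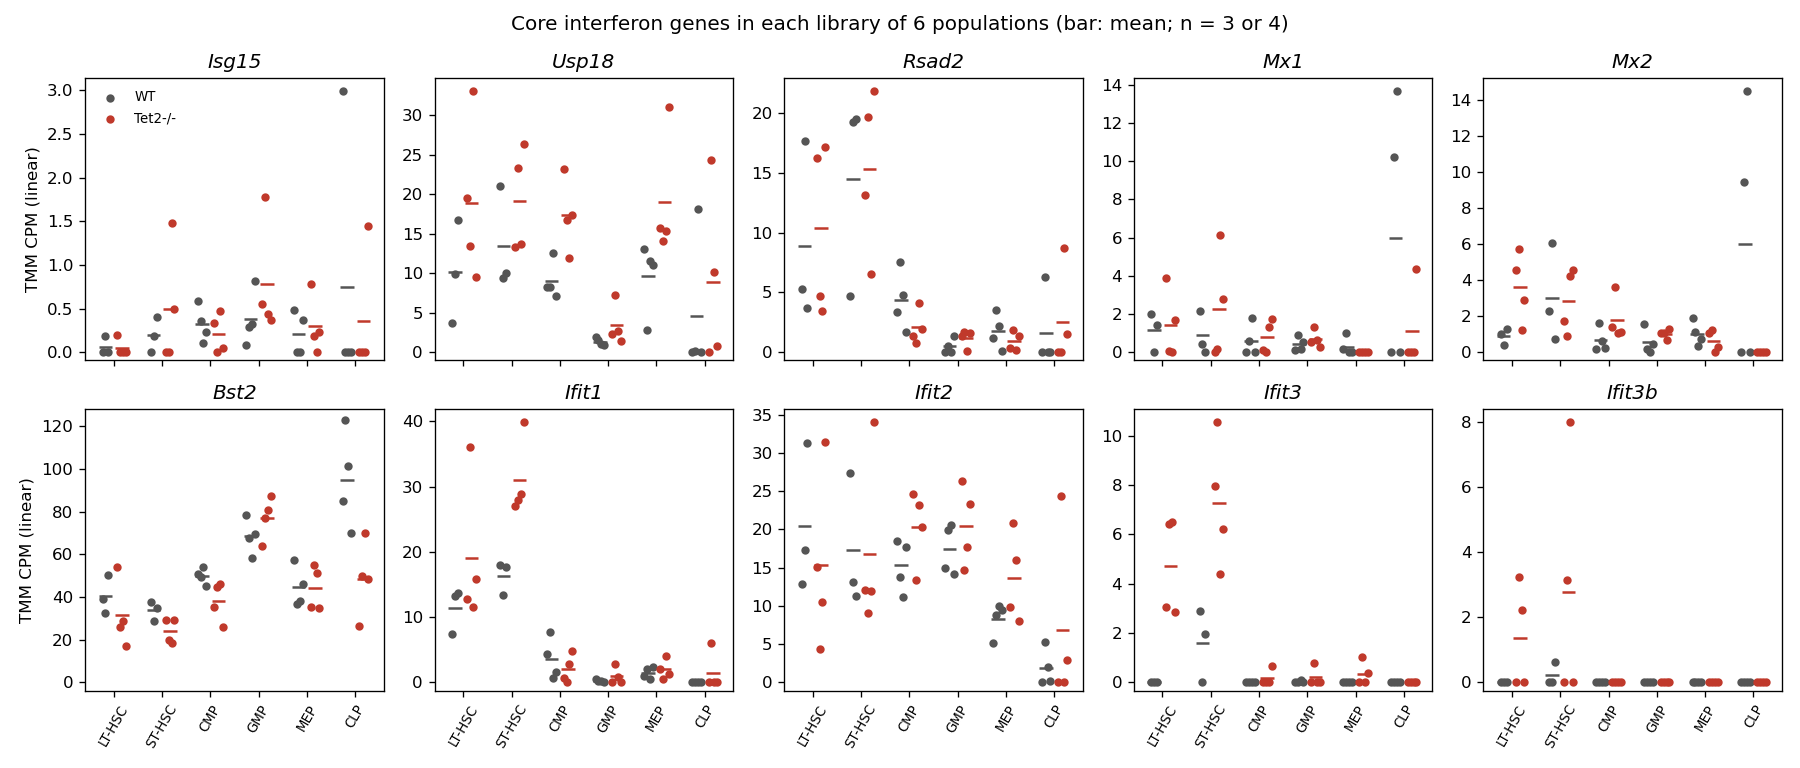
Each point is 1 library, in TMM CPM on a linear axis, for the 10 genes in 6 populations of WT (grey) and Tet2-/- (red) mice, with a bar at the mean. Ifit3 had points above 0 in all 8 Tet2-/- stem cell libraries and in 2 of 6 WT ones.

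The first comparison asked whether these genes differed in Tet2-/- LT-HSC, and none of the 8 members tested was called at an adjusted p under 0.05 with at least a 2-fold change (edgeR quasi-likelihood test, Benjamini-Hochberg over 16351 genes). Over all genes 0.0245% were called, 4 genes, and 843 genes had an unadjusted p under 0.05. Ifit3 had the smallest p of the members, but it passed the filter on low counts only through the Tet2-/- libraries, where it is high, so its p-values below are given as a description. Its level was 3.08, 6.41, 6.51 and 2.83 CPM in the 4 Tet2-/- libraries and 0 in all 3 WT libraries. The groups did not overlap. The Tet2-/- mean was at least 89.3-fold the level that 3 counts are worth in a single WT library. That level covers counting error only, so it sets no bound on the difference in expression. In WT ST-HSC, replicates counted 170, 0 and 164 reads of Ifit3. The unadjusted p was 0.000131 and the adjusted p 0.194 by edgeR. DESeq2, run as an alternative, called Ifit3 with an adjusted p of 8.05e-10, and called 145 genes in all. An exact two-sided permutation test of the means gave p = 0.0286, the smallest that 4 against 3 libraries allow. Of the 8 members that passed the filter Ifit3 alone had all Tet2-/- libraries above WT, beside 3.12% of all genes tested, and nothing is read from this count for the same reason.

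Ifit3b, too low to be tested, had 3.24 and 2.23 CPM in 2 Tet2-/- LT-HSC libraries and 0 in the other 2 and in all WT libraries. Since it shares words with Ifit3, the pair was also summed, and the count of members called stayed 0 in LT-HSC.

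Among the other effector genes, Mx2 was 4.58, 5.76, 1.25 and 2.91 CPM in Tet2-/- LT-HSC and 1.002, 0.403 and 1.31 CPM in WT. A single Tet2-/- library lay within the WT range. The log2 fold change was 2.00 ± 0.90 (SE) with an adjusted p of 0.994 by edgeR. Mx1, its neighbour on the chromosome, was 3.90, 0.0595, 0 and 1.70 CPM in Tet2-/- and 1.99, 0 and 1.43 CPM in WT, and the groups overlapped. Ifit1 was 12.8, 36.1, 11.5 and 15.9 CPM in Tet2-/- LT-HSC and 7.38, 13.2 and 13.7 CPM in WT. The log2 fold change was 0.76 ± 0.49 (SE), and 2 of 4 Tet2-/- libraries lay above WT. Rsad2 at 10.4 ± 7.32 against 8.88 ± 7.63 CPM, Ifit2 at 15.3 ± 11.6 against 20.5 ± 9.65 CPM and Bst2 at 31.5 ± 15.9 against 40.6 ± 9.08 CPM (SD, n = 4 and 3) differed by less than the SD of the Tet2-/- libraries.

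Of the ISG15 system, Isg15 itself was near 0 in LT-HSC, with 0.201 CPM in 1 Tet2-/- library, 0.183 CPM in 1 WT library and 0 in the other 5. Usp18 was 19.5, 13.5, 33.0 and 9.53 CPM in Tet2-/- and 3.73, 9.87 and 16.7 CPM in WT. Only 2 of 4 Tet2-/- libraries lay above WT, and the log2 fold change was 0.92 ± 0.60 (SE) with an adjusted p of 0.998 by edgeR.

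**Figure D2:**
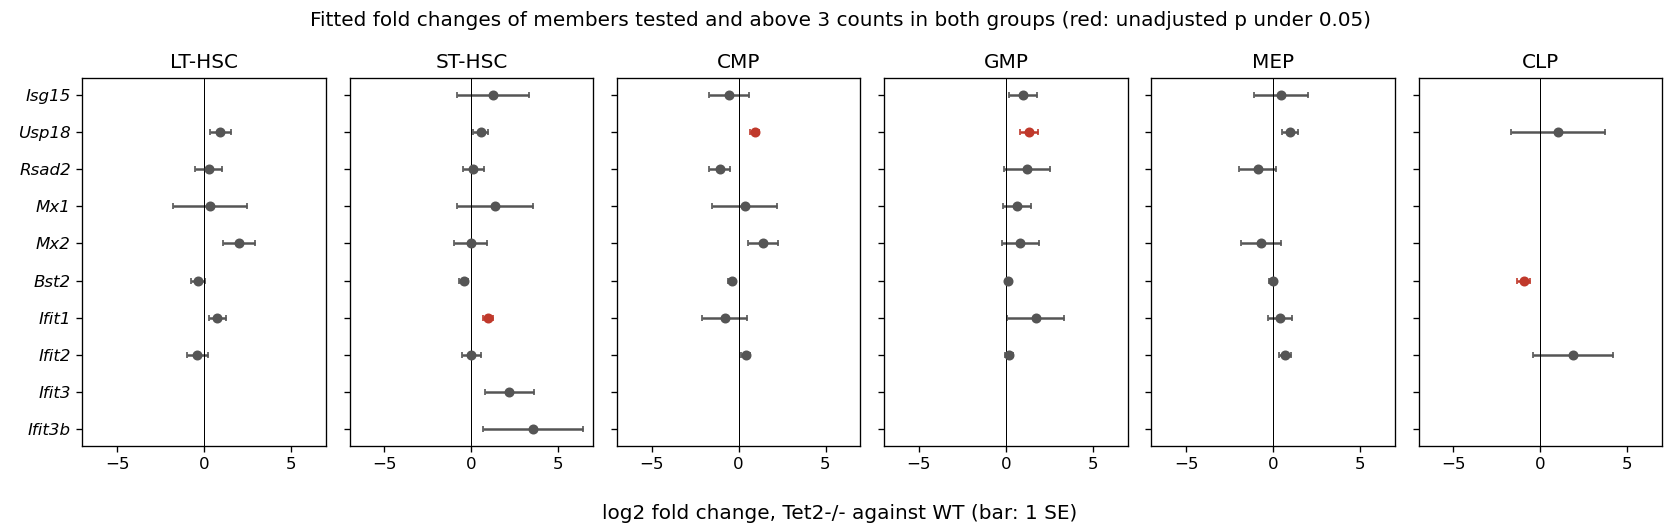
Points are fitted log2 fold changes of Tet2-/- against WT in each population, with bars of 1 SE, for members tested and held by at least 1 library of both groups. Red marks an unadjusted p under 0.05, reached by Ifit1 in ST-HSC, Usp18 in CMP and GMP, and Bst2 in CLP, none of them called after adjustment.

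In ST-HSC, the next stage, all 10 members were tested and 0 called, as were 0.0185% of all genes. Ifit1 was 27.1, 28.0, 28.8 and 40.0 CPM in Tet2-/- and 18.0, 13.4 and 17.7 CPM in WT. All 4 Tet2-/- libraries lay above WT, with a log2 fold change of 0.95 ± 0.28 (SE), an unadjusted p of 0.00864 and an adjusted p of 0.526 by edgeR. The summed level of 8 HSC markers also did not overlap, at 218 to 425 CPM in Tet2-/- and 462 to 490.4 CPM in WT ST-HSC, with Slamf1 at 0 in all 4 Tet2-/- libraries, and its part in these values was not tested. Ifit3 was 7.95, 10.6, 4.41 and 6.23 CPM in Tet2-/- and 2.90, 0 and 1.94 CPM in WT, again without overlap, with an adjusted p of 0.994 by edgeR. All Tet2-/- libraries lay above WT for these 2 of 10 members, beside 3.28% of all genes. Nothing is read from this count, since Ifit3 was above 3 counts in only 2 WT libraries and again passed the filter through Tet2-/-, which leaves Ifit1. Ifit3b was 3.15 and 8.004 CPM in 2 Tet2-/- libraries, 0.640 CPM in 1 WT library and 0 in the other 4. Usp18, Rsad2, Ifit2, Mx1, Mx2 and Isg15 overlapped between the genotypes. Bst2 was 24.2 ± 5.89 against 33.7 ± 4.49 CPM (SD, n = 4 and 3), with a log2 fold change of -0.45 ± 0.28 (SE).

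Across both stem cell populations Ifit3 was held by 8 of 8 Tet2-/- and 2 of 6 WT libraries. In the 4 other populations it was held by 4 of 16 Tet2-/- and 1 of 16 WT libraries, at no more than 1.05 CPM. Ifit3b was held by 4 of 8 Tet2-/- and 1 of 6 WT stem cell libraries and by none of the 32 others.

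In the myeloid progenitors more genes were called, but no member. In CMP, 0 of 8 members tested were called against 4.57% of all genes. Usp18 came nearest, at 23.2, 16.8, 11.99 and 17.4 CPM in Tet2-/- and 8.27, 8.21, 12.5 and 7.06 CPM in WT. The highest WT library lay within the Tet2-/- range, and the log2 fold change was 0.92 ± 0.27 (SE) with an adjusted p of 0.0788 by edgeR. The summed level of the 5 erythroid progenitor markers ran from 2652 to 5455 CPM in Tet2-/- CMP and from 473 to 1477 CPM in WT CMP, without overlap, and its part in the CMP results was not tested. Bst2 was 38.0 ± 9.25 against 49.8 ± 3.62 CPM (SD, n = 4 each), with 3 of 4 Tet2-/- libraries below WT. In GMP, 0 of 8 were called against 4.37% of all genes. The fitted values of the 8 that passed the filter were positive there, as were 52.9% of all genes. Their median was 0.91 beside 0.03 over all genes. In CMP 4 of 8 were positive, with a median of -0.03, beside 52% of all genes. In MEP 4 of 7 were positive, with a median of 0.40, beside 54.2% of all genes. Members were measured in the same libraries and can vary together, so these counts are a description. Usp18 was 2.30, 7.25, 2.71 and 1.44 CPM in Tet2-/- GMP and 1.89, 1.49, 1.05 and 0.932 CPM in WT, so that 3 of 4 Tet2-/- libraries lay above WT, with an adjusted p of 0.205 by edgeR. In MEP, 0 of 7 were called against 4.36% of all genes. Usp18 was 15.7, 14.04, 15.4 and 31.0 CPM in Tet2-/- MEP and 13.1, 2.76, 11.6 and 11.1 CPM in WT, and was the 1 member of 7 whose Tet2-/- libraries all lay above WT, as 4.52% of all genes did. Its log2 fold change there was 0.98 ± 0.47 (SE), with an adjusted p of 0.347 by edgeR.

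In CLP only Usp18, Bst2 and Ifit2 passed the filter on low counts, and 0 of 3 were called, beside 0.00766% of all genes. Bst2 was 26.4, 49.9, 70.1 and 48.2 CPM in Tet2-/- and 85.0, 123, 101 and 70.2 CPM in WT. The groups did not overlap, lower in Tet2-/-, as for 1.96% of all genes, and the log2 fold change was -0.96 ± 0.37 (SE) with an adjusted p of 0.999992 by edgeR. Bst2 is also a surface antigen of plasmacytoid dendritic cells. The summed level of the 5 markers of that cell type (Bst2 not among them) ran from 122 to 327 CPM in WT CLP and from 33.8 to 61.5 CPM in Tet2-/- CLP, with Klk1 at 0 in WT. GMP and myeloid progenitor markers summed to a median of 3241 CPM in Tet2-/- and 594 CPM in WT CLP, with overlapping ranges, and B cell markers to 418 and 954 CPM. The part of these lists in the Bst2 values was not tested. The study sorted CLP as lineage negative, and lists the antibodies of its lineage cocktail only for the staining of stem cells and multipotent progenitors. In bulk libraries fewer cells of a type and less RNA per cell cannot be told apart. Mx1 and Mx2 were at 10.2 and 13.6 CPM and at 9.45 and 14.5 CPM in the same 2 WT CLP libraries and 0 in the other 2. In Tet2-/- CLP Mx1 was 4.34 CPM in 1 library and Mx2 was 0 in all 4.

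Averaged over the 6 populations in 1 edgeR fit of 46 libraries, taken as independent, 0 of 10 members were called against 3.49% of all genes. Bst2 had a log2 fold change of -0.34 ± 0.11 (SE) with an adjusted p of 0.0649, Ifit1 1.33 ± 0.59 with 0.216 and Usp18 0.94 ± 0.51 with 0.377, all by edgeR. Without WT replicate 4 the Usp18 value was 1.96 with an adjusted p of 0.00475. That replicate includes the WT CLP library with 18.1 CPM of Usp18, where the next highest had 0.200 CPM. WT CLP was thus near 0 in that fit, and its part in the value was not tested. The Ifit1 value takes in CLP, where 1 WT library had 4 counts, 1 Tet2-/- library 460 and the rest 0. In the fits of single populations Ifit1 had 0.76 in LT-HSC, 0.95 in ST-HSC, -0.81 in CMP, 1.73 in GMP and 0.40 in MEP. Mx2 had -0.71 ± 0.29 with an adjusted p of 0.161, a value that depends on the prior count since Tet2-/- CLP was at 0. No usable value could be had for Ifit3 and Ifit3b in this fit, since whole groups were at 0, and a group at 0 also enters the fit of Mx1. The test of whether the difference in LT-HSC departs from the mean of the other 5 populations called 0 of 10 members and 0.139% of all genes. Leaving out 1 replicate number of a genotype took the genes called from 31 to between 0 and 39. DESeq2 called Mx1, Mx2 and Ifit3 in the averaged test, Mx1 and Mx2 lower and Ifit3 higher, and Mx2 in the LT-HSC test. A limma fit with genotype and replicate number as a block called Ifit3 higher in the averaged test (3.05, adjusted p 0.00146). The same fit called it in the LT-HSC test (7.41, adjusted p 0.0140). Whole groups at 0 enter all these values too, as Tet2-/- CLP for Mx2, Tet2-/- MEP for Mx1 and WT LT-HSC for Ifit3.

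Among WT populations Ifit1 was highest in stem cells and Bst2 in CLP, while most members did not pass the test. Over the 22 WT libraries, 3 of 8 members tested differed among populations at an adjusted p under 0.05 (edgeR F test). Over all genes the share was 44.6%, and the difference between the shares was not tested. The 3 members were Bst2 (adjusted p 7.0e-05), Ifit1 (0.000179) and Ifit2 (0.0362). The Ifit2 call was lost without WT replicate 2, 4 or 5, and also with the replicate number as a block. Isg15, Usp18, Rsad2, Mx1 and Mx2 had adjusted p from 0.279 to 0.845. Without WT replicate 4 Usp18 was called (adjusted p 0.00463), and without WT replicate 3 Ifit3 was tested and called (0.0415). Ifit1 had the order ST-HSC (16.3 ± 2.60 CPM), LT-HSC (11.4 ± 3.52), CMP (3.61 ± 3.22), MEP (1.48 ± 0.842), GMP (0.253 ± 0.213) and CLP (0.0214 ± 0.0427; SD, n = 3 for stem cells and 4 for the others). Of these neighbours only MEP and GMP had ranges that did not overlap. Against LT-HSC, Ifit1 was lower in GMP (log2 fold change -5.31 ± 1.25, adjusted p 0.00466) and in CLP, where a single library held 4 counts (-7.78 ± 1.34, adjusted p 0.000198), by edgeR. Without WT replicate 3 the Ifit1 call in GMP was lost, with a log2 fold change of -5.16 and an adjusted p of 0.0591.

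Bst2 had the order CLP (94.8 ± 22.6 CPM), GMP (68.5 ± 8.09), CMP (49.8 ± 3.62), MEP (44.6 ± 9.41), LT-HSC (40.6 ± 9.08) and ST-HSC (33.7 ± 4.49; SD). Only GMP and CMP, among neighbours, did not overlap. Bst2 rose in CLP against LT-HSC by 1.22 ± 0.22 on the log2 scale (adjusted p 0.000364 by edgeR), in the population where the markers of plasmacytoid dendritic cells were also high. These markers stayed at or below 4.79 CPM in the other WT populations. Without WT replicate 3 it was 0.998 on the log2 scale, just under the 2-fold threshold. Ifit2 had the order LT-HSC (20.5 ± 9.65 CPM), GMP (17.4 ± 3.30), ST-HSC (17.3 ± 8.85), CMP (15.3 ± 3.45), MEP (8.35 ± 2.17) and CLP (1.86 ± 2.41; SD), and of these neighbours only CMP and MEP did not overlap. It fell in CLP against LT-HSC, with a log2 fold change of -3.43 ± 0.87 (SE) and an adjusted p of 0.00605 by edgeR. Without WT replicate 5 the log2 fold change was -2.54 and the adjusted p 0.0885.

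**Figure D3:**
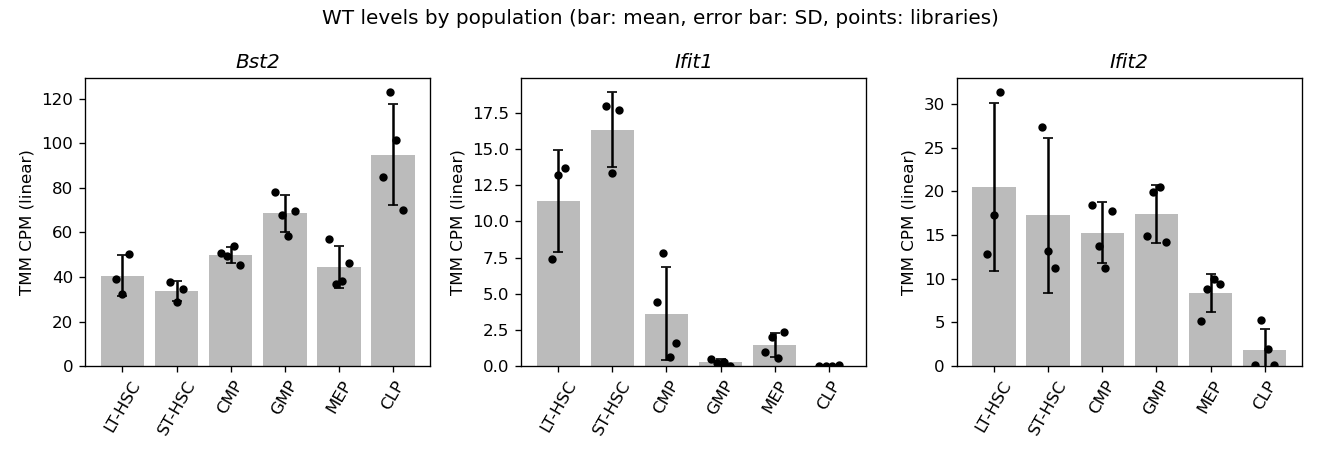
WT levels of Bst2, Ifit1 and Ifit2 in TMM CPM by population, with bars at the mean, error bars of 1 SD, cut at 0 where they would pass below it, and points for libraries. Bst2 is highest in CLP (94.8 CPM) and Ifit1 in ST-HSC (16.3 CPM).

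Counted by population, 0 of 8 members were called in ST-HSC against LT-HSC (0.175% of all genes), 0 in CMP (5.53%), 1 in GMP (16.3%), 0 in MEP (12.6%) and 3 in CLP (26%). Usp18, Rsad2, Mx1, Mx2 and Isg15 were called in none with all libraries. Leaving out 1 WT replicate took the genes called from 35 to between 12 and 58 in ST-HSC. In CMP they went from 1107 to between 464 and 1010, and in GMP from 3258 to between 1892 and 3342. In MEP they went from 2517 to between 1391 and 2279, and in CLP from 5195 to between 3662 and 4810. In CLP against LT-HSC Usp18 had a log2 fold change of -1.15, and without WT replicate 4 it was called at -6.73 (adjusted p 0.000965). Rsad2 had -2.46 there, and without WT replicate 3 it was called at -7.19 (adjusted p 0.0277). Usp18 was 8.84 ± 11.4 CPM in Tet2-/- CLP and 4.58 ± 9.02 CPM in WT CLP, where 1 library at 18.1 CPM carried nearly all of it. Rsad2 had its highest WT mean in ST-HSC (14.5 ± 8.50 CPM) and its lowest in GMP (0.481 ± 0.657 CPM).

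Other genes of the pathway were read from lists that were chosen with earlier results of these data known. Genes of a list were measured in the same libraries and can vary together, so the counts of positive values are a description. Of 38 other interferon-stimulated genes, 38 were tested in LT-HSC and 33 had a positive value, with a median of 0.44 and none called, while 54.3% of all genes had a positive value there, with a median of 0.06. Positive values were found in 30 of 37 genes in ST-HSC, 26 of 36 in CMP, 34 of 37 in GMP, 30 of 35 in MEP and 22 of 30 in CLP, beside 53.1%, 52%, 52.9%, 54.2% and 54.1% of all genes. For the Tet2-/- effect in LT-HSC minus that in the other 5 populations, 17 of 38 were positive, with a median of -0.06, beside 49.4% of all genes. In LT-HSC the 3 with the smallest p were Ifi44l (1.12 ± 0.30), Oasl2 (1.03 ± 0.33) and Ifi44 (0.79 ± 0.27, SE). In GMP 2 of 37 rose in Tet2-/-, Ifi44l (1.98) and Ifi44 (1.84), in CMP Ifi44 (1.30) and in MEP Trim30a (1.10), each at an adjusted p under 0.05 by edgeR. These were 2 of 37, 1 of 36 and 1 of 35 genes tested, beside 51 of 16563, 105 of 16047 and 22 of 14934 of all genes called higher in GMP, CMP and MEP. In CMP and MEP the count was 1 gene. In the average of 6 populations Eif2ak2 (1.37), Phf11d (2.84), Oas3 (1.70) and Ifi44 (1.52) rose, 4 of 38 genes tested, beside 387 of 22360 of all genes called higher. Of the upstream genes, Ifngr2, a chain of the interferon gamma receptor, fell in Tet2-/- CMP (-1.84), GMP (-2.07) and MEP (-1.45), and Ifnar2, a chain of the type I receptor, in CMP (-1.57) and MEP (-1.01). These were 2 of 18 upstream genes tested in CMP, 1 of 18 in GMP and 2 of 17 in MEP, beside 629 of 16047, 672 of 16563 and 629 of 14934 of all genes called lower. Most genes called in these 3 populations were lower, 629 of 734 in CMP, 672 of 723 in GMP and 629 of 651 in MEP. Among genes of ISG15 conjugation none was called in LT-HSC, where Ube2l6, its conjugating enzyme, had 1.59 ± 0.29 (SE) and an adjusted p of 0.445.

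The second set compared LT-HSC libraries labelled WT, Sting-/- and DKO and holds no group labelled Tet2-/-. By the labels, Sting-/- against WT differs in Sting alone, DKO against Sting-/- in Tet2 alone and DKO against WT in both genes. DKO mice also carried Mx1-Cre and received poly(I:C), while the study lists its Sting-/- mice without Cre. The part of Cre or of poly(I:C) in these comparisons was not tested. Beside the Tmem173 counts given above, Tet2 counted 977, 0 and 0 reads in WT, 498, 1729 and 91 in Sting-/- and 1342, 1433 and 56 in DKO. In some libraries of this set the levels of both genes thus did not follow the labels. A gene-level count can include reads from the exons left after deletion, so these counts do not settle the genotype. The study reports loss of STING protein in bone marrow cells of Sting-/- and DKO mice by Western blot. Comparisons of this set are between libraries so labelled, not between genotypes checked in these libraries. The set was normalized apart from the first and its levels are not compared with it. Of 4 members tested 0 were called in Sting-/- against WT, where no gene at all was called (0%), 470 genes had an unadjusted p under 0.05 and DESeq2 called 262. In DKO against WT 0 of 6 members were called (0.657% of all genes), and in DKO against Sting-/- 0 of 5 (0.159%). Leaving out any 1 library took the genes called from 64 to between 2 and 41 in DKO against WT. In DKO against Sting-/- it took them from 15 to 0. A fit with fewer libraries can also call fewer genes, and the part of single libraries in this was not tested. With 3 against 3 libraries an exact permutation test cannot go below p = 0.1.

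Only Bst2 was held by all 9 libraries, at 98.045, 77.5 and 123 CPM in WT, 72.3, 141 and 101 CPM in Sting-/- and 43.3, 174 and 144 CPM in DKO, with overlap throughout. Ifit3 was 0, 25.6 and 2.34 CPM in WT, 0 in all 3 Sting-/- libraries, and 114, 0 and 0 CPM in DKO. Usp18 was 0, 94.7 and 29.0 CPM in WT, 0.0382, 7.29 and 1.06 CPM in Sting-/- and 94.7, 43.8 and 2.03 CPM in DKO. Rsad2 was 0.0516, 7.58 and 0.907 CPM in WT, 2.75, 0 and 0 CPM in Sting-/-, and 23.5, 27.9 and 0 CPM in DKO. The groups overlapped for each of these genes. Ifit1 ran from 0 to 72.6 CPM in WT, 0 to 47.1 CPM in Sting-/- and 0 to 50.9 CPM in DKO, and Mx2 was above 3 counts in 4 of 9 libraries. Mx1 had no count in any of the 9 libraries and Isg15 and Ifit2 in 8 of 9. An alternative chosen after the data were seen left out the libraries labelled Sting-/- or DKO that had more than 3 Tmem173 counts. It left 1 library in each of Sting-/- and DKO, assumed to vary like WT. Such a fit cannot show whether the results depend on the labels, and nothing is read from it.

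**Figure D4:**
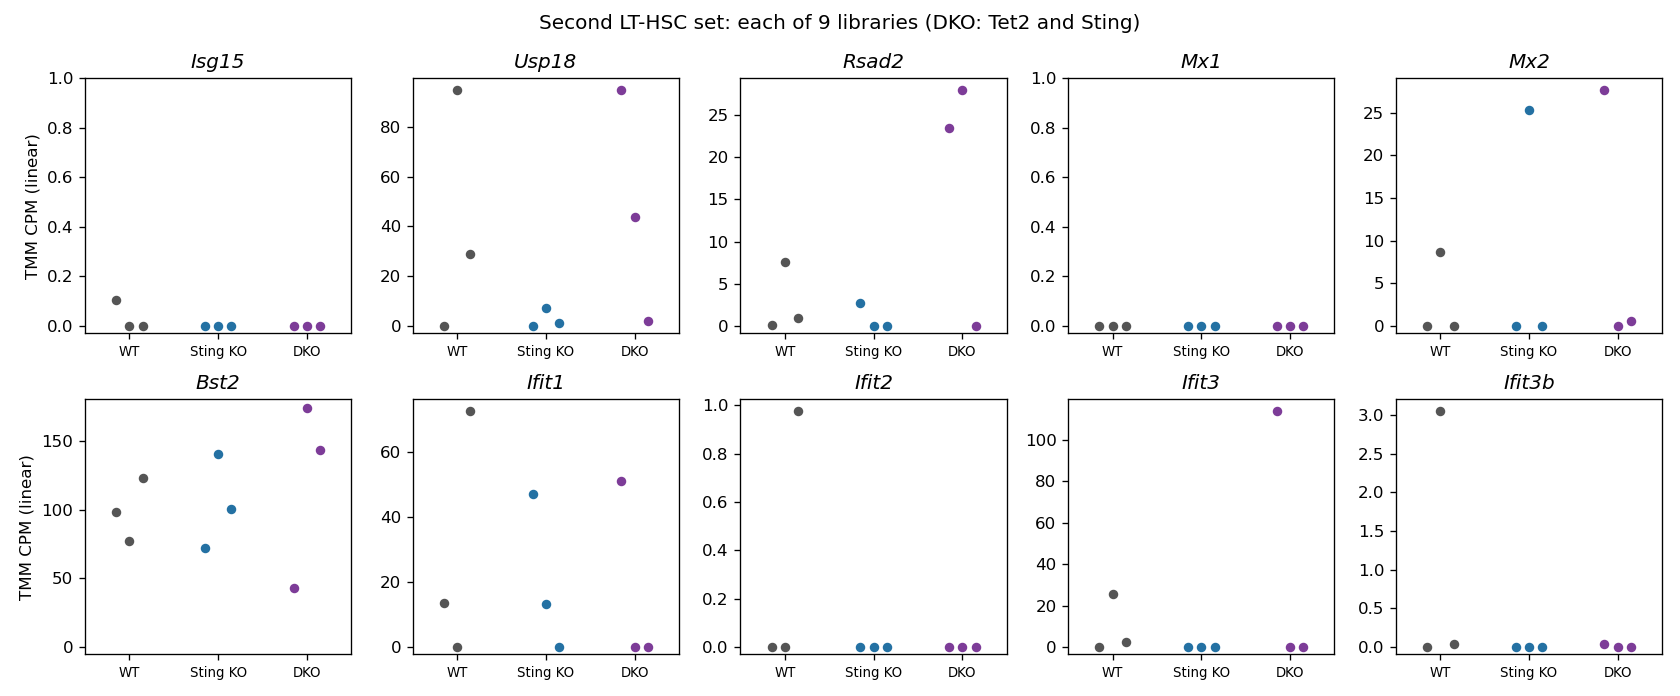
Each point is 1 of the 9 libraries of the second LT-HSC set in TMM CPM on a linear axis, by the labelled genotype. Ifit3 is at 0 in all 3 Sting-/- libraries and in 2 of 3 DKO libraries, and Bst2 alone is above 43 CPM in every library.

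Members varied together only loosely once group means were taken off. The highest Pearson r of 2 members over the 46 libraries was 0.62, for Mx1 and Mx2, which share part of their words, and the next was 0.37 for Mx1 and Ifit2; the libraries of a table share their processing. No p is given. The 5 other genes whose residuals were most like the mean of the members were Gm16174 (r = 0.82), Fut1 (0.78), Mllt6 (0.78), Gm15511 (0.75) and Gm15889 (0.75). Over the 12 group means they were Gm4356 (0.98), Gm43936 (0.97), Gm21411 (0.97), Trav6d-7 (0.97) and Gm44148 (0.96), the last being the gene that overlaps Usp18.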

How the data were processed

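RNA-seq counts per gene were deposited by the authors in 2 tables, as raw counts with no normalization, 1 for each set. Reads were trimmed with Trim Galore (0.6.7 in the submitters' processing notes) and aligned with HISAT2. Those notes name mm10 and mm9 and the methods mm10, and the counting program and its use of strand are not given in the sources used here. From the second of these tables, 2 broken lines were left out.

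Each comparison was fitted on the libraries of its groups with edgeR 4.0.16 in R 4.3.3 (TMM, filterByExpr, quasi-likelihood F test, Benjamini-Hochberg over all genes tested), with a fold change prior count of 2. Calls needed at least a 2-fold change beside an adjusted p under 0.05. CPM were computed over all libraries of a set, and patterns between libraries on log2(CPM + 1). Exact permutation tests were two-sided, and 10 members were tested in 9 comparisons of 2 groups. With so many tests no permutation p at the design's minimum would pass adjustment. Alternatives were DESeq2 1.42.0, the replicate number as a block (a fixed term in edgeR, or duplicateCorrelation in limma 3.58.1 across populations), all libraries in 1 fit, RLE scaling, no filter, no fold threshold, Ifit3 and Ifit3b summed and each library left out. Scripts were tested on simulated data. The members and gene lists were chosen with earlier results of these data known. Named were all members, every list gene called between genotypes, or else the 3 of smallest p, of which a selection is printed. No libraries were identical.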

Additional observations from a re-analysis of the deposited data

Results flagged for a closer look

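A library stood apart from the other 3 of its group, by Dixon's criterion at 95%, in 18 of 86 groups of 4 with any counts (20.9%, where chance gives about 1 in 20 for values without ties). In 10 of the 18 the other 3 libraries were at 0, so that any single library with counts met the criterion and the chance share does not apply. In 5 other groups the other 3 libraries also held the gene: Usp18 in Tet2-/- MEP replicate 5 (31.0 CPM, next 15.7), Ifit1 (40.0, next 28.8) and Ifit2 (34.1, next 12.04) in Tet2-/- ST-HSC replicate 5, Mx2 in Tet2-/- CMP replicate 3 (3.62, next 1.41) and Isg15 in Tet2-/- GMP replicate 3 (1.78, next 0.556). In CLP, single libraries carried Ifit1 (5.99 CPM) and Ifit2 (24.3 CPM) in Tet2-/- replicate 3, Isg15 (1.44) and Mx1 (4.34) in Tet2-/- replicate 5, Ifit1 (0.0854) in WT replicate 5, Isg15 (2.99) in WT replicate 2, Rsad2 (6.28) in WT replicate 3 and Usp18 (18.1) in WT replicate 4. The rest were Ifit3 in Tet2-/- CMP replicate 5 (0.656), Tet2-/- GMP replicate 3 (0.800) and WT GMP replicate 4 (0.0980), Isg15 in Tet2-/- LT-HSC replicate 2 (0.201) and Mx1 in WT MEP replicate 3 (0.979).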

How the results depend on the processing

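Of 218 recomputed counts of members called, 208 stayed the same or within 1.5 times the reported count. Most reported counts were 0, where only a recomputed 0 was taken as the same. The share thus mostly counts 0 staying 0 and does not measure how stable the results are. DESeq2 called 1 member in LT-HSC (Ifit3), 3 in the average of 6 populations, 1 in LT-HSC against the other 5 and 1 in WT MEP against LT-HSC (Ifit1). The replicate block called 1 (Ifit3, adjusted p 0.00146 by limma) in the average and 1 (Ifit3, adjusted p 0.0140) in LT-HSC against the other 5, and took Ifit2 out of the calls among the 6 WT populations, from 3 to 2. The numbers were not taken to pair the genotypes. Correlations of same-numbered WT and Tet2-/- libraries ran from -0.0409 to 0.0753, and 8 of 22 WT libraries correlated best with their own number. Those between populations of the same genotype and number ran from -0.0471 to 0.212, with a median of 0.042 and 14 of 111 over 0.1. Whether such populations shared an animal is not known, and the main fits took them as independent. All libraries in 1 fit called 1 member in CLP (Mx2). With no fold threshold 2 were called in WT GMP against LT-HSC. Leaving out 1 replicate gave 0 to 1 member in the average (Usp18, without WT replicate 4, log2 fold change 1.96), 0 to 1 in WT GMP against LT-HSC, and 2 to 4 both in CLP against LT-HSC and among the 6 WT populations. Without WT replicate 4 Usp18 was called in CLP (-6.73), and without WT replicate 3 Rsad2 (-7.19). Under RLE scaling 2 values near 0 in LT-HSC against the other 5 changed sign, Bst2 from -0.03 to 0.052 and Usp18 from -0.04 to 0.011. Over all genes DESeq2 called 145 in LT-HSC, 188 in ST-HSC, 119 in CLP, 2563 in the average, 1218 in LT-HSC against the other 5, 262 in Sting-/- and 830 in DKO against WT, and 637 in DKO against Sting-/-, where edgeR called 4, 3, 1, 781, 31, 0, 64 and 15. All libraries in 1 fit called 20 in LT-HSC, 21 in ST-HSC, 285 in CMP, 219 in GMP, 423 in MEP and 1477 in CLP. In the second set such a fit called 1 in Sting-/- and 123 in DKO against WT, and 75 in DKO against Sting-/-. With the replicate block these counts were 0, 26 and 0. The cause was not tested. Without the libraries labelled Sting-/- or DKO that had more than 3 Tmem173 counts, DKO was set against Sting-/- in a fit with WT. That left 1 library in each of DKO and Sting-/-, and nothing is read from it.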
